A study of Mus musculus with 9 samples.

Results

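ATF4 and the genes it is known to switch on for amino acid supply and one-carbon metabolism were followed as a set of 38 genes in NIH/3T3 cells, an immortalised mouse embryonic fibroblast line. The 38 genes were chosen by gene symbol from a list of ATF4 and its reported targets, and are 38 of the 56691 genes in the deposited table. Ddit3 was the 1 symbol listed for more than 1 gene, and its row with the higher summed count was kept. All 9 RNA-seq libraries came from wild-type cells. In 3 libraries the cells had received UVA at 10 J/cm2 together with alpha-arbutin, a glycosylated hydroquinone used to lighten skin. In 3 libraries they had received the same UVA dose alone, and 3 libraries were from control cells without a stated treatment. The dose of alpha-arbutin, its timing relative to UVA and the time to harvest are not stated in the labels used. The titles of the UVA libraries read MOCK, while the dose stands in the treatment field of those libraries. The table's NC columns were taken as the controls, since the other column names match the other groups. All cells are 1 established line, and nothing in the labels says that the libraries of a group came from separate cultures. The p-values therefore measure the spread between these libraries, which may be technical.

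Cells short of amino acids, or with misfolded proteins, haem shortage or double-stranded RNA, phosphorylate the translation factor eIF2alpha. General protein synthesis then slows while the Atf4 mRNA is translated more, so that ATF4 protein can rise without any change in its mRNA. ATF4 pairs with C/EBP-family proteins on a composite DNA element and turns on amino acid transporters, enzymes that make serine, glycine, asparagine and proline, the mitochondrial folate pathway, and feedback genes such as Trib3 and Ppp1r15a. Proline and glycine are the main building blocks of collagen, and fibroblasts draw on these routes for matrix synthesis. RNA counts report the mRNA only: neither ATF4 protein nor eIF2alpha phosphorylation was measured.

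Depth ran from 16298348 to 20862894 counts per library, with 21026 to 21815 genes above 0. Of the 14151 genes that passed the filter on low counts, 35 were among the 38 members. Fgf21, Vldlr and Cbs did not pass it. The 10 fibroblast markers held together 8680 to 9270 CPM, counts scaled to library size, in UVA + alpha-arbutin libraries, 8990 to 9220 CPM in UVA libraries and 12400 to 12800 CPM in control libraries. Their lower sum after UVA ran alongside the members' lower levels described here, and its part in those results was not tested. The 6 pigment cell markers summed to 6.08 to 6.28 CPM in UVA + alpha-arbutin libraries, 5.64 to 6.03 CPM in UVA libraries and 8.12 to 8.44 CPM in control libraries. This low sum, too, was lower after UVA. It was not split by gene, and its part was not tested. Summed markers of epithelial, endothelial, immune and muscle cells lay between 0.877 and 10.8 CPM in every library, with Epcam, Krt5, Cd3e, Myod1, Actc1 and Dct at 0 counts throughout.

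The members' promoters were searched for TGATGNAA, the core of the composite C/EBP-ATF response element, and for its reverse complement TTNCATCA. RefSeq start sites on GRCm38.p6 gave windows of 250 bases before to 50 bases after the start for 32 of the 38 members. No window was held for Aldh1l2, Cth, Eif4ebp1, Slc1a5, Slc7a3 and Slc7a5. The core was present for 11 of the 32 members (34.4%), namely Asns, Chac1, Fgf21, Got1, Jdp2, Nupr1, Pck2, Pycr1, Slc1a4, Trib3 and Vldlr. Counted by window it was in 11 of 40 member windows (27.5%), against 1304 of all 32851 windows in the table (3.97%). Of 9809 tested genes with a window, 259 held it (2.64%). The members were chosen as reported ATF4 targets, so their higher share is not independent of that choice, and it was not tested. The windows below belong to the 5 core-holding members with the smallest p after UVA, and Atf4, whose window holds no core, stands beside them. Sequences run 5′ to 3′ on the gene's own strand, and the capitals mark the core in either orientation.
Asns, chr6:7693160-7693459, - strand: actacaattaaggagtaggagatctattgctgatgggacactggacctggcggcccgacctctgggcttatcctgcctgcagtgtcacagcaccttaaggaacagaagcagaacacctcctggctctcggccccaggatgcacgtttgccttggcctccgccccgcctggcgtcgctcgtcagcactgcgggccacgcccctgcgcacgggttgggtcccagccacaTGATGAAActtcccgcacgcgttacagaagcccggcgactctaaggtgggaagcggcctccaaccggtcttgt
Pck2, chr14:55540016-55540315, + strand: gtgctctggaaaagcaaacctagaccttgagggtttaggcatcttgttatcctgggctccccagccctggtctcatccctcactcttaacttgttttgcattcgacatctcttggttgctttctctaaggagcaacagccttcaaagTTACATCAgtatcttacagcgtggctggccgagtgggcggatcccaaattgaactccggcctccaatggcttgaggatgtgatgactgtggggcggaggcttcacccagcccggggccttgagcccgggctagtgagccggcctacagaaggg
Pycr1, chr11:120643699-120643998, - strand: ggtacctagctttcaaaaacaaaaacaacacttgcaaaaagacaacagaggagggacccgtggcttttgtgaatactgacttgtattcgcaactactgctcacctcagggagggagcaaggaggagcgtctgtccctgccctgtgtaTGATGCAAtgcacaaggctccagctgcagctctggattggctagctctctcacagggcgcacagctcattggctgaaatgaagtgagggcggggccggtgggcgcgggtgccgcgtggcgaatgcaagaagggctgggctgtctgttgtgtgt
Trib3, chr2:152344011-152344310, - strand: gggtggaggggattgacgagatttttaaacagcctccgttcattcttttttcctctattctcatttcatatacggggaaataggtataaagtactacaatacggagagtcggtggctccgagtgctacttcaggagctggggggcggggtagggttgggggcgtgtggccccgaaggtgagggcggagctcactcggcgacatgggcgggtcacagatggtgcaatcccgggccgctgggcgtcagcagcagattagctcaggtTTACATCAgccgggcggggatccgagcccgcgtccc
Chac1, chr2:119350992-119351291, + strand: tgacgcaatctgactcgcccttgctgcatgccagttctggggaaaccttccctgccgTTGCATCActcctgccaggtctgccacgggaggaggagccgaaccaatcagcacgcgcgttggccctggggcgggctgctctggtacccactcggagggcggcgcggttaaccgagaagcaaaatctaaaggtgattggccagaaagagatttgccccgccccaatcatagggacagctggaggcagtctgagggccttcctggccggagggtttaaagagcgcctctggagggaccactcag
Atf4, chr15:80254934-80255233, + strand: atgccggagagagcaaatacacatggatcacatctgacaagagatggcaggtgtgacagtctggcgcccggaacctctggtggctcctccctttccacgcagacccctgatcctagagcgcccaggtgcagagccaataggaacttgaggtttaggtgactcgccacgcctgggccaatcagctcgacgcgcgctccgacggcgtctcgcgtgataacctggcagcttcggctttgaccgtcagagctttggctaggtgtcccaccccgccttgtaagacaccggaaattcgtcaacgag
In Asns the first base of the match lay 23 bases before the start, in Pck2 and Pycr1 it lay 103 bases before it, in Chac1 193 bases before it, and in Trib3 14 bases after it. A match in this window is a description of the sequence and was not tied to binding by any measurement here.

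UVA was compared with control first. With edgeR's quasi-likelihood test and an adjusted p below 0.05 over all 14151 tested genes, 27 of the 35 tested members fell after UVA and 2 rose, Slc38a2 and Mthfd1l. Of all tested genes, 14.6% were called lower and 14.7% called higher. The median log2 fold change of the 35 members was -0.29, with a range of -1.36 to 0.31, while the median over all tested genes was 0.0. For 29 members every UVA library was below every control library in FPKM (counts scaled to exon length and library size), which held for 22.5% of all tested genes, and for 2 members every UVA library was above, which held for 18.7%. All members together took 0.58%, 0.576% and 0.544% of the counts in UVA libraries and 0.7%, 0.672% and 0.706% in control libraries. In RNA from whole cultures, fewer cells with a transcript and less RNA per cell cannot be told apart.

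**Figure D1:**
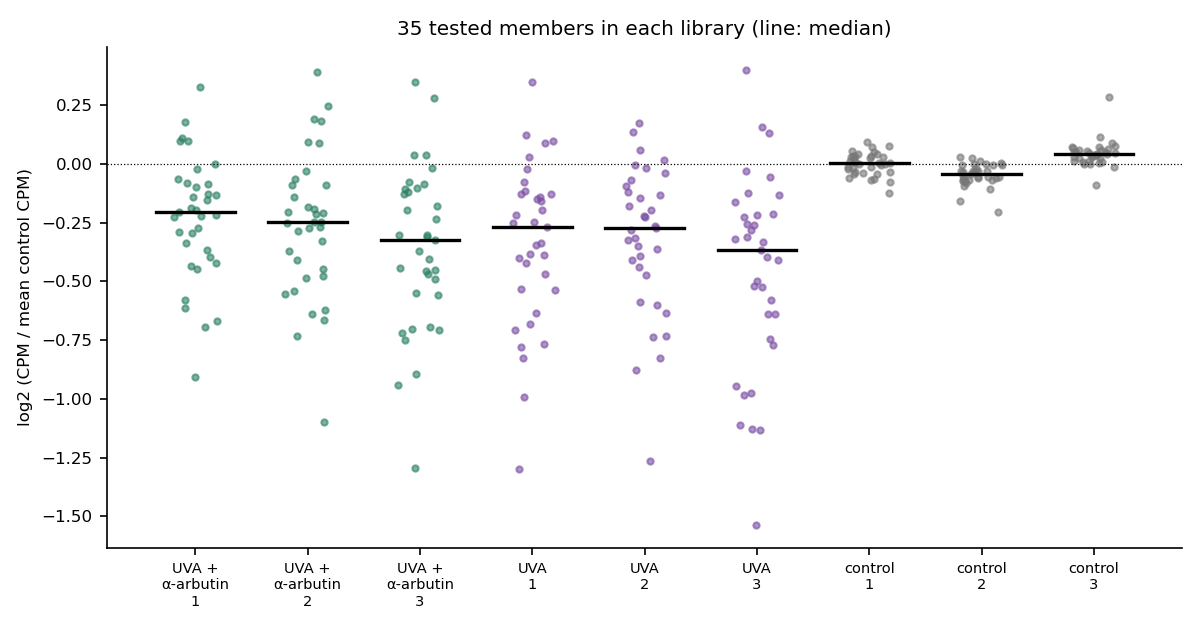
Each point is 1 of the 35 tested members in 1 library, as log2 of its CPM over the mean CPM of the 3 control libraries, and the line is the library's median. The medians are -0.2, -0.25 and -0.33 in UVA + alpha-arbutin libraries, -0.27, -0.27 and -0.37 in UVA libraries and 0.0, -0.04 and 0.04 in control libraries.

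The steepest falls were in the enzymes of proline synthesis and in those that link amino acids to central carbon metabolism, where 5 of 6 members fell and the median log2 fold change was -0.84. Pycr1, a mitochondrial enzyme that makes proline in the last step of its synthesis (chr11:120526538-120534595 on mm39), had 2.72, 2.79 and 2.32 FPKM in UVA libraries against 7.23, 6.76 and 6.35 FPKM in control libraries. The highest UVA library lay far below the lowest control library. Its log2 fold change was -1.36 (SE 0.10, adjusted p = 3.15e-11), the largest fall among the 35 members. Aldh18a1, which makes the precursor of proline from glutamate, had 39.51, 38.89 and 33.01 FPKM after UVA against 66.96, 62.23 and 66.8 FPKM in control cells, again with no overlap (log2 fold change -0.80, SE 0.05, adjusted p = 2.33e-12). The first and the last enzyme of the route from glutamate to proline thus both fell.

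Pck2, the mitochondrial phosphoenolpyruvate carboxykinase (chr14:55777723-55788699), had 7.76, 8.43 and 7.07 FPKM in UVA libraries against 15.98, 14.89 and 16.05 FPKM in control libraries. The fitted level after UVA was 0.5 of that in control cells, and the groups did not overlap (log2 fold change -1.0, SE 0.06, adjusted p = 2.62e-13, the smallest among the members). Gpt2, a mitochondrial alanine aminotransferase, had 14.56, 15.55 and 12.03 FPKM against 25.59, 26.13 and 26.8 FPKM (log2 fold change -0.89, SE 0.07, adjusted p = 8.14e-11). Every UVA library was again below every control library. Asns, asparagine synthetase and a standard readout of ATF4 activity (chr6:7675169-7693254), had 94.76, 96.82 and 89.09 FPKM in UVA libraries against 129.72, 128.25 and 128.02 FPKM in control libraries. The control libraries lay close together and all above the UVA libraries (log2 fold change -0.44, SE 0.04, adjusted p = 6.89e-10). Got1, the cytosolic aspartate aminotransferase, was the exception in this group: its log2 fold change of -0.11 did not pass the test (adjusted p = 0.124), although it did without UVA replicate 2 (-0.15, adjusted p = 0.0427).

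**Figure D2:**
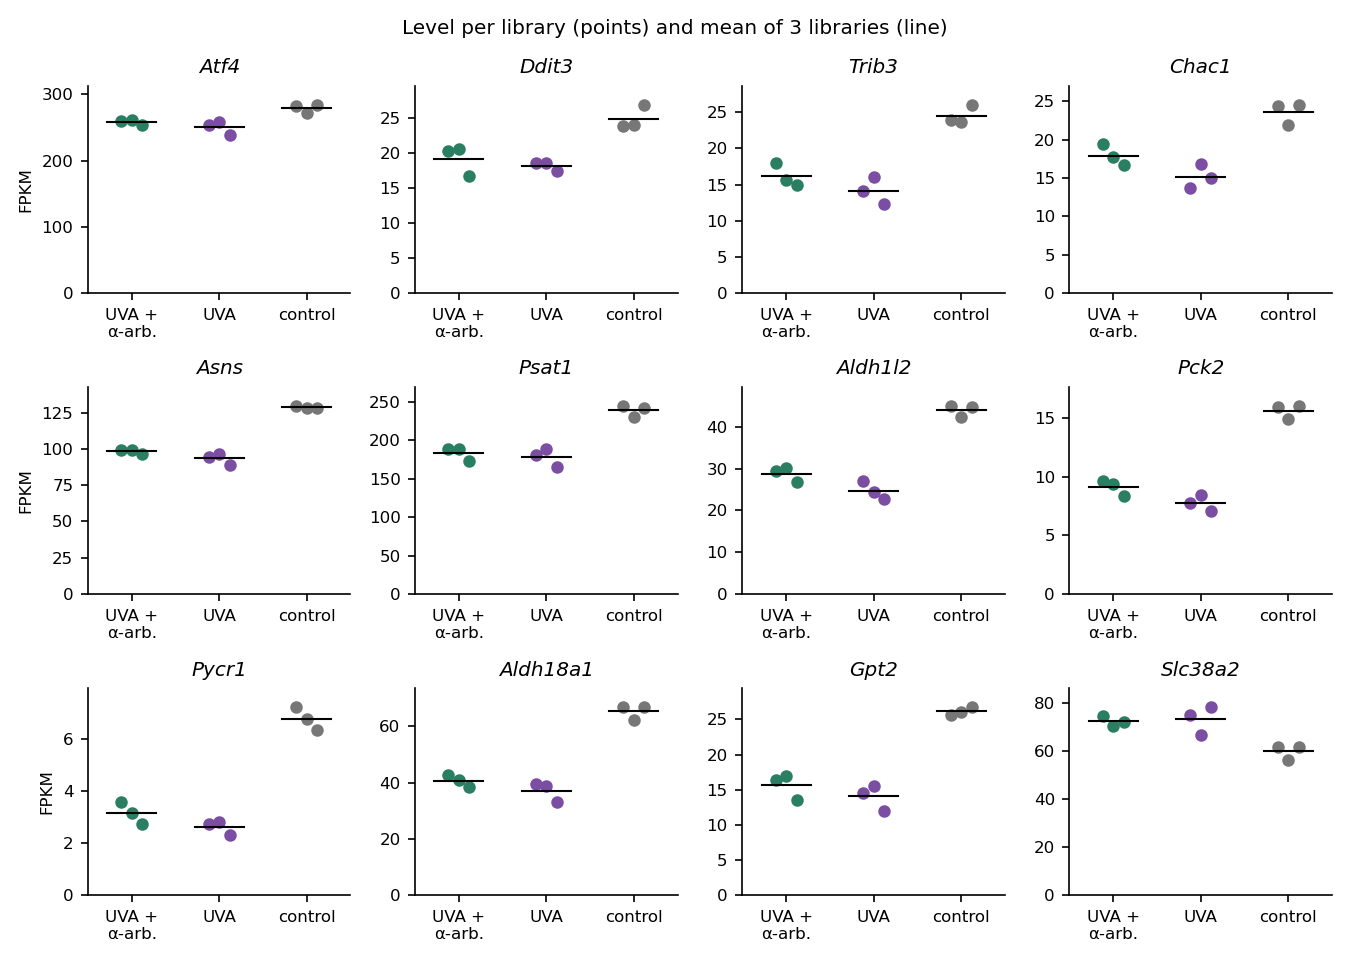
FPKM of 12 members in each library (points) with the mean of the 3 libraries of a group (line), each panel starting at 0. In 11 panels the UVA libraries lie below the control libraries, and in the panel of Slc38a2 they lie above them.

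Serine is made from a glycolytic intermediate by Phgdh, Psat1 and Psph in turn, and all 3 fell, as did Shmt2, which splits serine into glycine and a one-carbon unit in mitochondria. Psat1, the aminotransferase of the second step, had 180.59, 188.89 and 164.87 FPKM in UVA libraries against 244.82, 230.51 and 242.15 FPKM in control libraries. Its groups did not overlap, and it fell the most of the 4 (log2 fold change -0.41, SE 0.04, adjusted p = 2.3e-08). Psph, the phosphatase of the last step, fell by 0.39 on the log2 scale, with 12.33, 13.07 and 10.54 FPKM in UVA libraries against 15.96, 16.01 and 15.66 FPKM in control libraries. Phgdh, the entry enzyme, had the smallest change of the 4: it fell by 0.16 on the log2 scale, with 162.0 ± 4.51 FPKM after UVA and 184.0 ± 7.28 FPKM in control cells (SD, n = 3 each, as for later means). Shmt2 had 119.57, 118.71 and 114.92 FPKM in UVA libraries against 146.07, 140.71 and 151.03 FPKM in control libraries, with no overlap (log2 fold change -0.29, SE 0.04, adjusted p = 1.68e-06).

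Of the mitochondrial folate enzymes that carry the one-carbon unit onward, 2 fell and 1 rose. Aldh1l2, which burns formyl groups to carbon dioxide and makes NADPH in mitochondria (chr10:83323314-83370004), had 27.05, 24.51 and 22.69 FPKM in UVA libraries against 45.04, 42.29 and 44.64 FPKM in control libraries. No UVA library reached the lowest control library, and the log2 fold change was -0.81 (SE 0.05, adjusted p = 7.22e-13). Mthfd2, the mitochondrial dehydrogenase and cyclohydrolase, averaged 42.2 ± 1.94 FPKM after UVA and 49.1 ± 1.41 FPKM in control cells, a log2 change of -0.21 (adjusted p = 0.000763). Mthfd1l, which releases formate for export to the cytosol, averaged 26.6 ± 0.179 FPKM after UVA and 24.6 ± 0.852 FPKM in control cells. Its rise was small (log2 fold change 0.13, SE 0.05, adjusted p = 0.0399) and the call was lost on leaving out any 1 UVA or control library, with adjusted p between 0.0605 and 0.194. Cth, which makes cysteine from cystathionine, was the transsulfuration enzyme with enough counts, at 11.83, 12.24 and 8.43 FPKM in UVA libraries against 18.05, 18.22 and 19.51 FPKM in control libraries. All UVA libraries were lower (log2 fold change -0.77, SE 0.09, adjusted p = 1.95e-07).

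All 7 transcription factors of the set fell, with a median log2 fold change of -0.28. Atf4 itself (chr15:80139385-80141742) had the highest level of the 38 members in control cells. It had 254.28, 258.9 and 238.19 FPKM in UVA libraries against 282.43, 271.6 and 284.22 FPKM in control libraries, without overlap. Its log2 fold change of -0.14 (SE 0.04, adjusted p = 0.00518) was a fall to 0.906 of the control level. Ddit3, which encodes CHOP, a stress-induced partner of C/EBP proteins, had 18.66, 18.59 and 17.52 FPKM after UVA against 23.85, 24.09 and 26.95 FPKM in control cells. The UVA libraries were all lower (log2 fold change -0.44, SE 0.08, adjusted p = 5.73e-05). Jdp2, a bZIP repressor, had 14.09, 15.91 and 13.18 FPKM against 19.81, 20.66 and 21.53 FPKM, the largest fall of the 7 (log2 fold change -0.51, SE 0.07, adjusted p = 2.24e-06). Nupr1, a stress-induced chromatin protein, fell by 0.28 on the log2 scale, Atf5, a relative of ATF4 that is also controlled in translation, by 0.26, Cebpb by 0.35 and Cebpg by 0.20. Cebpb and Cebpg encode C/EBP proteins that pair with ATF4. The Cebpb call was lost without UVA replicate 1 (adjusted p = 0.084) and without control replicate 3 (0.0717), and that of Cebpg without control replicate 3 (0.0501).

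Of the 6 tested feedback and stress genes, 3 fell. Trib3, a pseudokinase that ATF4 induces and that restrains it in turn (chr2:152179342-152185952), had 14.09, 16.0 and 12.32 FPKM in UVA libraries against 23.98, 23.59 and 26.03 FPKM in control libraries. Chac1, which degrades glutathione, had 13.67, 16.83 and 15.05 FPKM against 24.35, 21.93 and 24.54 FPKM. In both genes every UVA library lay below every control library. The log2 fold change was -0.79 for Trib3 (SE 0.08, adjusted p = 1.26e-08) and -0.62 for Chac1 (SE 0.08, adjusted p = 6.48e-07). Ppp1r15a, the GADD34 subunit that lets a phosphatase reset eIF2alpha, fell by 0.17 on the log2 scale with an adjusted p of 0.0401. That call was lost in 5 of the 6 fits without 1 UVA or control library, with adjusted p between 0.0686 and 0.178, and remained without control replicate 2. Eif4ebp1, a brake on cap-dependent translation, had a log2 change of -0.13 (adjusted p = 0.0734, and 0.0284 without UVA replicate 2). Stc2, a secreted glycoprotein, had -0.03 (adjusted p = 0.822), and Xpot, which exports tRNA from the nucleus, had a fold of 0.998 (adjusted p = 0.96).

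Fgf21, a secreted hormone that is a classic ATF4 target in liver, had too few counts for the fit. It had 1 count over the 3 UVA + alpha-arbutin libraries, 1 over the UVA libraries and 29 over the control libraries, of which control replicates 1 and 3 held 13 and 14 and replicate 2 held 2. The ratio of UVA to control per library size was 0.0352, with a 95% counting interval of 0.000861 to 0.212 that covers counting error only. Vldlr, a lipoprotein receptor, had 2, 3 and 3 counts in the UVA + alpha-arbutin, UVA and control groups. Cbs, the first transsulfuration enzyme, had 2, 5 and 6. For neither can a difference be shown at this depth.

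The 8 amino acid transporters divided, with 5 lower and 1 higher after UVA. Slc7a5 and Slc3a2 encode the light and the heavy chain of the LAT1 exchanger for large neutral amino acids. Slc7a5 had 58.83, 52.54 and 47.95 FPKM in UVA libraries against 81.37, 80.85 and 85.15 FPKM in control libraries, and Slc3a2 had 39.38, 42.79 and 39.38 FPKM against 54.3, 49.9 and 52.56 FPKM. Neither overlapped between the groups, and the log2 fold change was -0.62 for Slc7a5 (SE 0.06, adjusted p = 3.86e-09) and -0.35 for Slc3a2 (SE 0.05, adjusted p = 1.06e-06). Slc6a9, a glycine transporter, fell by 0.50 on the log2 scale, Slc1a4, which carries serine and alanine, by 0.29, and Slc1a5, which carries glutamine, by 0.21. Slc38a2, the SNAT2 importer of small neutral amino acids and a gene induced by amino acid shortage, went the other way. It had 75, 66.58 and 78.22 FPKM in UVA libraries against 61.64, 56.1 and 61.47 FPKM in control libraries, with every UVA library higher (log2 fold change 0.31, SE 0.05, adjusted p = 8.09e-06). The cationic amino acid transporters did not pass the test: Slc7a1 had a log2 change of 0.02 (95% interval -0.07 to 0.11), and Slc7a3, at under 1 FPKM on average in each group, had 0.06 (-0.37 to 0.49).

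**Figure D3:**
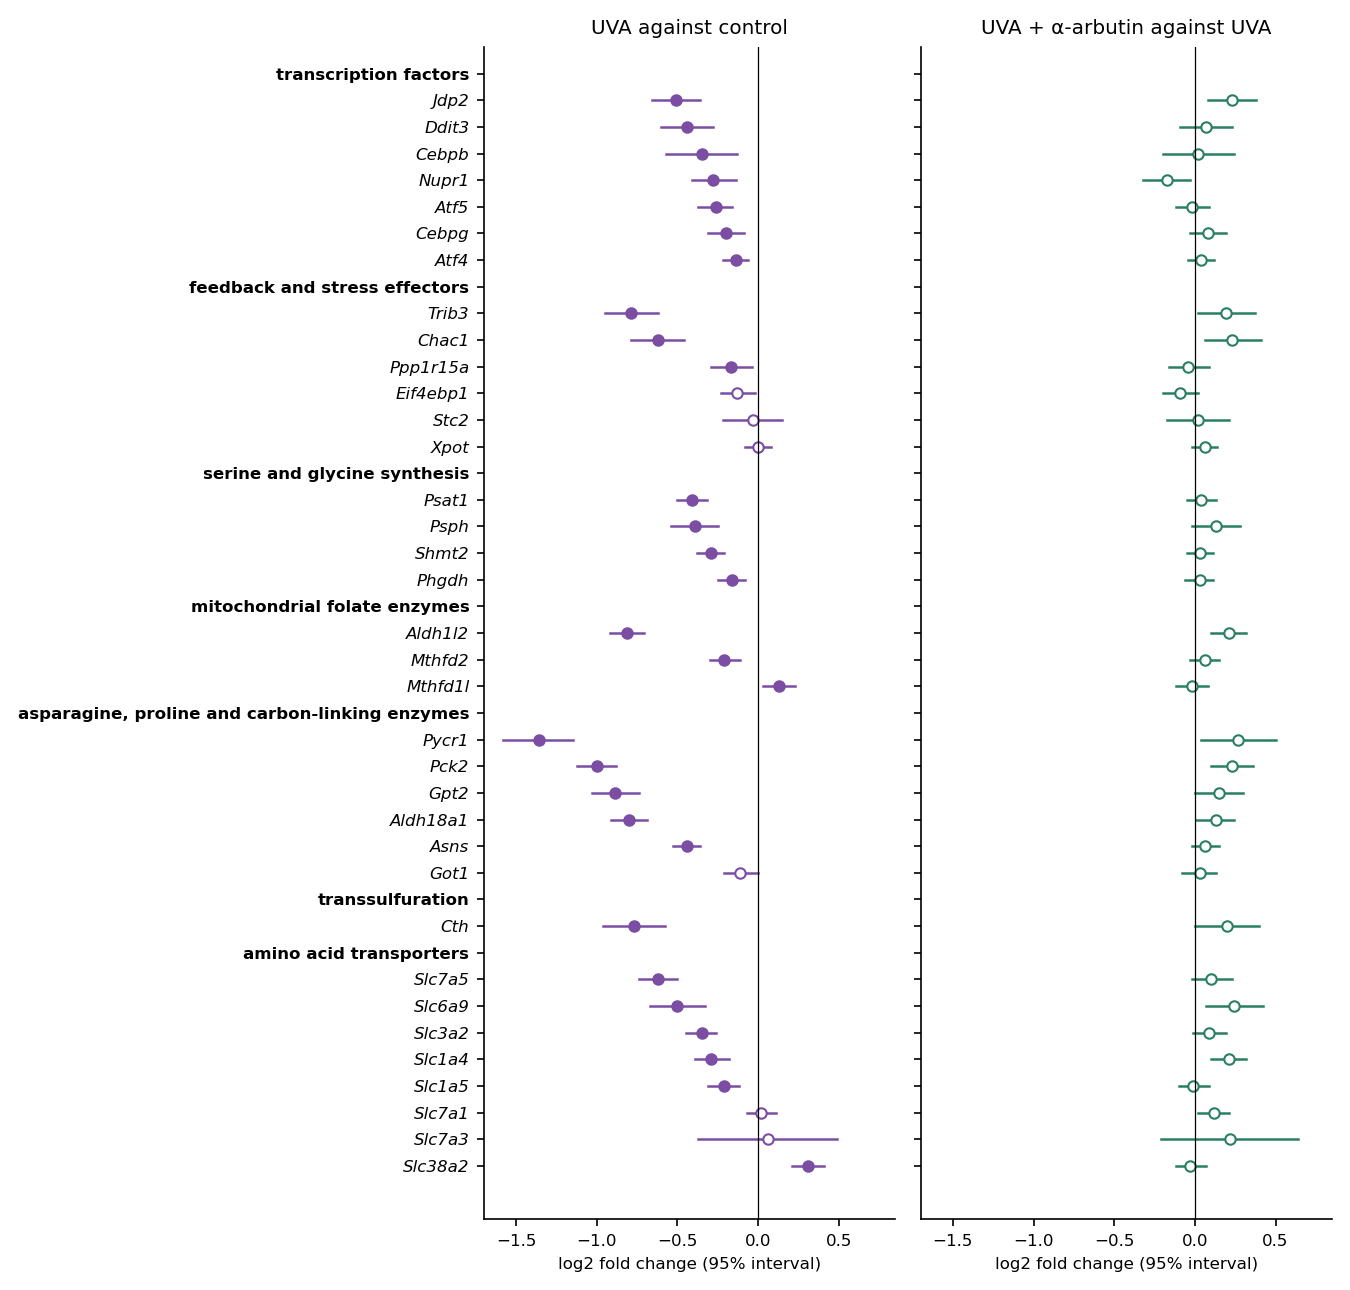
Log2 fold change with its 95% interval for the 35 tested members by role, for UVA against control (left) and UVA + alpha-arbutin against UVA (right), with filled points where the adjusted p is below 0.05. On the left 27 filled points lie below 0 and 2 above it, and on the right no point is filled.

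Some members lie over a gene on the opposite strand, and the labels do not say whether the counting used strand, so reads in the overlap cannot be assigned. The values of partner genes after UVA are given below, and what the overlaps add to the members' values was not tested. Nopchap1, over Aldh1l2, had a log2 change of 0.05 after UVA (adjusted p = 0.476), Mars1, over Ddit3, had -0.10 (0.104), and Cct6a, over Psph, had 0.07 (0.135). Nup62, over Atf5, had -0.02 (0.805) and Peds1, over Cebpb, had -0.12 (0.338). B4galt2, over Slc6a9, fell as well, by 0.22 (adjusted p = 0.00296). Gm43314, on the same strand as Cth, fell by 0.94 (adjusted p = 0.0489), at a mean of 22.9 counts per library. Also on the same strand and at low counts, Gm43890 with Mthfd2 had -0.52 (0.121) and Gm45094 with Cebpg had -0.41 (0.443). Gm44836 with Cebpg had 0.01 (0.988), and Gm15801 with Aldh18a1 had 0.31 (0.38).

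Among the 29 tested members with a promoter window, the 9 that held the core sequence had a median log2 fold change of -0.51 after UVA, with a range of -1.36 to -0.11, and 8 of them were called lower. The 20 without it had a median of -0.23, with a range of -0.89 to 0.31, and 15 were called lower. The 2 ranges overlap widely, and the difference was not tested. Gpt2 and Aldh18a1, with 2 of the larger falls, hold no core in their windows, and Got1, which did not pass the test, holds one.

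Several members have a counterpart in another compartment or an isoenzyme, and the ratio of counts per base between the 2 genes in the same library does not depend on library size. These pairs were chosen after the values were known, so the ratios are given without a test. Shmt2 over Shmt1, its cytosolic form, was 7.57, 7.85 and 7.46 in UVA libraries and 10.6, 11.3 and 11.6 in control libraries. Gpt2 over Gpt, its cytosolic counterpart, was 19.5, 20.7 and 16.1 in UVA libraries and 28, 26.7 and 29.9 in control libraries. Gpt had few counts, with 40, 36 and 44 in UVA libraries and 46, 51 and 55 in control libraries, so this ratio carries large counting error. In both pairs the balance was shifted away from the member after UVA, by -0.55 and -0.59 on the log2 scale. Slc7a5 over Slc3a2 was 1.49, 1.23 and 1.22 against 1.5, 1.62 and 1.62, so that the LAT1 light chain stood lower relative to its heavy chain in each UVA library. UVA replicate 1 was close to the lowest control library. Mthfd1l over Mthfd1 and Got1 over Got2 overlapped between the groups, with mean differences of -0.02 and 0.0.

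**Figure D4:**
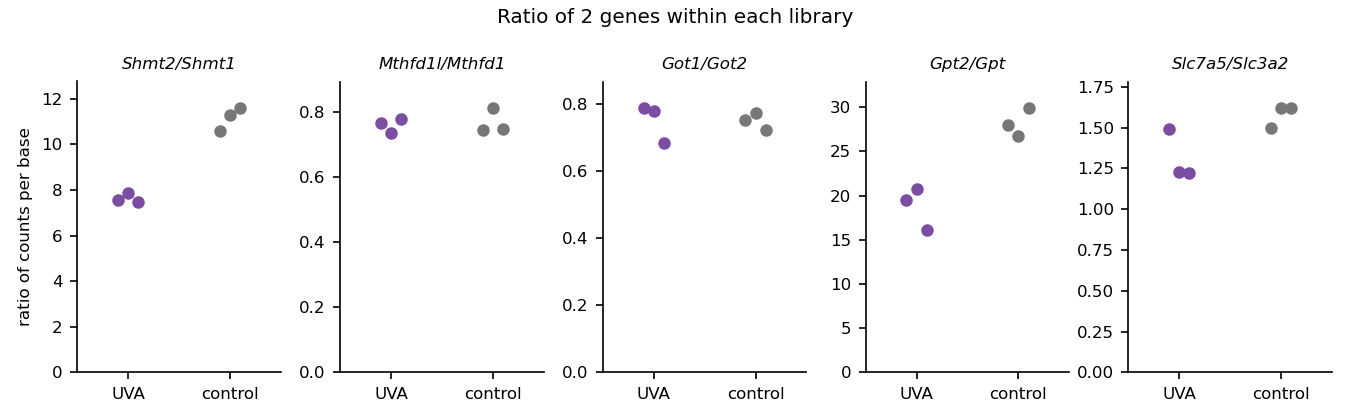
Ratio of counts per base of exon between 2 genes in each UVA and control library, 1 panel for each pair, with axes starting at 0. The ratios Shmt2/Shmt1, Gpt2/Gpt and Slc7a5/Slc3a2 are lower in all 3 UVA libraries, and those of Mthfd1l/Mthfd1 and Got1/Got2 overlap.

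Genes around the ATF4 pathway that are not among the 38 were described from 7 further lists, with the same test, against the 14.7% of all tested genes called higher and 14.6% called lower after UVA. Of 8 tested genes from a list of other stress-induced genes reported as ATF4-dependent, 5 fell after UVA and none rose, with 0 higher at an unadjusted p below 0.05 or by DESeq2 or limma. Among them were Ddit4, an inhibitor of mTORC1 (log2 fold change -0.60, adjusted p = 2.47e-09), Gadd45a (-0.77, 1.45e-06), Slc7a11, the cystine importer (-0.50, 8.04e-06), and Ero1a, an oxidase of the endoplasmic reticulum (-0.30, 2.24e-06). The other that fell was Nars (-0.17, 0.00127), which also stands in the list of cytosolic synthetases described below and is counted there again. Atf3 and Gdf15 of the ATF4-dependent list had too few counts. Upstream of ATF4, of 6 genes for eIF2alpha, its kinases and a phosphatase subunit, Eif2s1, which encodes eIF2alpha, rose by 0.19 (adjusted p = 0.0011) and Eif2ak4, the kinase that senses uncharged tRNA, fell by 0.22 (0.00308). With 1 call each way among the 6, both counts are close to the shares over all genes. Eif2ak3, the kinase of the endoplasmic reticulum, had -0.09 (0.43) and Ppp1r15b, the constitutive phosphatase subunit, had -0.08 (0.212).

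The cytosolic aminoacyl-tRNA synthetases, several of which ATF4 is known to induce, divided: 7 of 20 fell and 4 rose. The count that rose was 1 with either limma fit, 1 without control replicate 2 and 2 without control replicate 1, while the count that fell was 7 or 8 under every alternative. The 4 with the smallest p all fell, namely Sars (log2 fold change -0.40, adjusted p = 1.32e-08), Lars (-0.38, 6.25e-08), Gars (-0.32, 2.06e-07) and Eprs (-0.28, 6.84e-06), which charge tRNA with serine, leucine, glycine, and glutamate and proline. Of the 17 mitochondrial synthetases, 3 rose and none fell, with 0 lower at an unadjusted p below 0.05 or by DESeq2 or limma. The count of 3 is close to the share over all genes, and it was 0 with DESeq2, 0 without the filter on low counts, 1 with either limma fit, 0 without control replicate 2, and 1 without UVA replicate 1 or without UVA + alpha-arbutin replicate 2. The 3 were Yars2 (0.20, adjusted p = 0.0261), Ears2 (0.30, 0.0472) and Sars2 (0.33, 0.0477), and each call was lost without 1 or more of the libraries, with adjusted p up to 0.153, 0.195 and 0.323. Wars2 had 0.24 (0.0558).

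Of 18 tested other folate, methionine cycle and glycine cleavage genes, both cytosolic and mitochondrial, 4 rose and none fell. None was lower at an unadjusted p below 0.05 either, and DESeq2 and limma also called 0 lower. Shmt1, the cytosolic counterpart of Shmt2, rose by 0.26 (adjusted p = 0.000891), Mat2a, which makes S-adenosylmethionine, by 0.13 (0.00919), Atic, of purine synthesis, by 0.14 (0.00995) and Mthfd1, the cytosolic trifunctional enzyme, by 0.15 (0.0142). All but the Shmt1 call were lost without at least 1 library, with adjusted p up to 0.0562 for Mat2a, 0.0538 for Atic and 0.0966 for Mthfd1, and 2 were called without control replicate 2 or without control replicate 3. Among 16 other amino acid enzymes, 4 rose and 4 fell. The count that rose was 2 with DESeq2 and with either limma fit, 1 without UVA replicate 3, and 2 without UVA replicate 2, control replicate 2 or control replicate 3. The count that fell was 1 without control replicate 1, and 2 without UVA replicate 1, UVA replicate 3 or control replicate 3. Glud1, glutamate dehydrogenase, rose by 0.19 (0.000468) and Bckdhb, of branched-chain amino acid breakdown, fell by 0.41 (0.00199). Pycrl, an enzyme of the pyrroline-carboxylate reductase family, rose by 0.29 (0.0103, and up to 0.113 without 1 library), and Bcat2, the mitochondrial branched-chain aminotransferase, fell by 0.28 (0.0152, and up to 0.0687). Of 13 other amino acid transporters, 1 rose (0 with limma or without control replicate 2) and 2 fell. Both counts are close to the shares over all genes. Slc1a3, a glutamate and aspartate importer, averaged 4.26 ± 0.715 FPKM after UVA and 10.2 ± 2.25 FPKM in control cells (log2 fold change -1.24, adjusted p = 6.89e-10). Slc38a4, a SNAT-family importer, fell by 0.39 (1.41e-07). Slc36a1, a lysosomal amino acid exporter, rose by 0.26 (0.0182, and up to 0.101 without 1 library), and Slc38a1 had 0.08 (0.161).

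**Figure D5:**
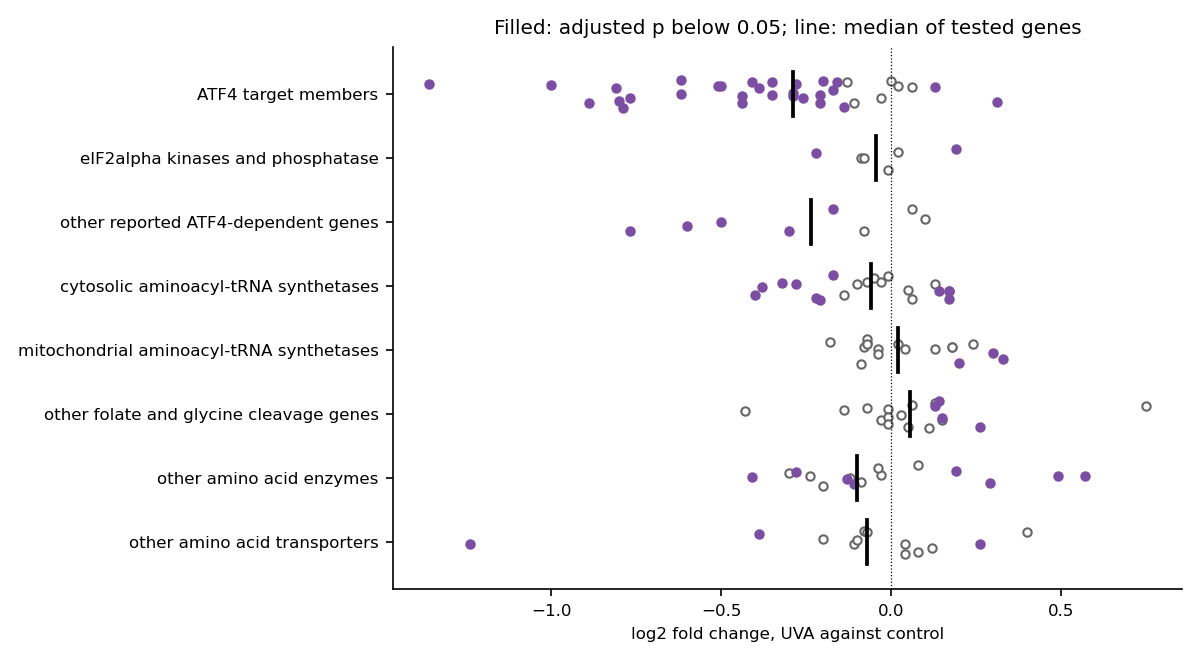
Log2 fold change after UVA against control of each tested gene in the ATF4 set and in 7 related lists, filled where the adjusted p is below 0.05, with a line at the list's median. The medians are -0.29 for the ATF4 set, -0.24 for other reported ATF4-dependent genes, -0.06 for cytosolic synthetases, 0.02 for mitochondrial synthetases and 0.05 for other folate genes.

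Alpha-arbutin given with UVA was compared with UVA alone to see whether it altered the response. No member was called: 0 of 35 were higher and 0 lower at an adjusted p below 0.05 with edgeR's quasi-likelihood test, where 0.0283% of all tested genes were called higher and 0.00707% lower. DESeq2 and limma also called 0. At an unadjusted p below 0.05 in that edgeR test there were 12 members, 11 higher and 1 lower. Over all 14151 tested genes 957 reached it. The log2 fold changes of the 35 members had a median of 0.07 and lay between -0.17 and 0.27, and 28 were above 0, against 50% of all tested genes. Every UVA + alpha-arbutin library was above every UVA library for 2 members (5.96% of all tested genes) and below for 1 (4.44%). Both counts are close to the shares over all tested genes, so the lack of overlap does not set the members apart. The UVA libraries stand in both this comparison and UVA against control, so a low value in a UVA library raises a gene in co-treatment against UVA and lowers it in UVA against control.

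The nearest to a call was Aldh1l2, with 29.33, 30.07 and 26.78 FPKM in UVA + alpha-arbutin libraries against 27.05, 24.51 and 22.69 FPKM in UVA libraries. UVA + alpha-arbutin replicate 3 was below UVA replicate 1, so the groups overlapped. The log2 fold change was 0.21 (95% interval 0.10 to 0.32, adjusted p = 0.264), and its call turned on single choices: the adjusted p was 0.0331 without UVA replicate 1 and 0.00768 without the filter on low counts. Slc1a4 had 26.34, 26.3 and 25.53 FPKM in UVA + alpha-arbutin libraries against 24.63, 21.49 and 21.3 FPKM in UVA libraries, with every co-treated library higher. Its log2 fold change was 0.21 (95% interval 0.10 to 0.32, adjusted p = 0.323, and 0.0331 without UVA replicate 1). Jdp2, with 16.78, 17.31 and 16.62 FPKM against 14.09, 15.91 and 13.18 FPKM, was the other gene without overlap on the higher side (0.23, 95% interval 0.08 to 0.38, adjusted p = 0.626). Nupr1 was the gene lower in every co-treated library, at 11.52, 10.87 and 10.93 FPKM against 12.61, 12.11 and 12.63 FPKM (-0.17, 95% interval -0.32 to -0.03, adjusted p = 0.682).

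The members with the largest falls after UVA had small positive values that did not pass the test. Pycr1 had 3.59, 3.15 and 2.74 FPKM in UVA + alpha-arbutin libraries (log2 fold change against UVA 0.27, 95% interval 0.04 to 0.50, adjusted p = 0.699). Pck2 had 9.62, 9.38 and 8.34 FPKM (0.23, 95% interval 0.10 to 0.36, adjusted p = 0.394), and Trib3 had 18.05, 15.7 and 14.9 FPKM (0.19, 95% interval 0.02 to 0.37, adjusted p = 0.701). In each of these 3 genes the co-treated libraries overlapped the UVA libraries and stayed below all control libraries. Chac1 had a log2 change of 0.23 (95% interval 0.06 to 0.41, adjusted p = 0.627) and Gpt2 had 0.15 (-0.00 to 0.30, 0.741). Asns at 99.43, 99.15 and 96.29 FPKM, Atf4 at 259.93, 260.9 and 253.68 FPKM and Ddit3 at 20.33, 20.56 and 16.82 FPKM lay within or close to the range of the UVA libraries. Their log2 fold changes were 0.06 (95% interval -0.02 to 0.15), 0.04 (-0.04 to 0.12) and 0.07 (-0.09 to 0.23). Psat1 had 0.04 (-0.05 to 0.13) and Shmt2 0.03 (-0.05 to 0.11), and the value of Slc38a2, which had risen after UVA, was -0.03 (-0.12 to 0.07).

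Outside the set, Slc7a11 was the 1 gene of the 7 further lists that was called in this comparison. It had 5.11, 4.27 and 3.96 FPKM in UVA + alpha-arbutin libraries against 3.17, 3.19 and 2.71 FPKM in UVA libraries, with every co-treated library higher. Its log2 fold change was 0.55 (SE 0.08, adjusted p = 0.00102), and limma on log2(FPKM + 1) did not call it (adjusted p = 0.444).

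Set against control cells, cells given UVA + alpha-arbutin also had most of the set lower: 26 of 35 members were lower and 2 higher, where 12.9% and 13.0% of all tested genes were called. The median log2 fold change was -0.26. This comparison shares its control libraries with the first. All UVA + alpha-arbutin libraries were below all control libraries for 28 members (20.6% of all tested genes), and above for 1 (18.4%). Pycr1 fell by 1.09 on the log2 scale, against control (SE 0.10, adjusted p = 2.07e-09), Pck2 by 0.77 (SE 0.06, adjusted p = 5.19e-11), Gpt2 by 0.74, Aldh18a1 by 0.68, Aldh1l2 by 0.61, Trib3 by 0.59 and Cth by 0.57. Asns fell by 0.38 (SE 0.04, adjusted p = 1.55e-08), Psat1 by 0.37, Shmt2 by 0.27 and Slc7a5 by 0.52. The 2 members that rose were Slc38a2, by 0.28 (adjusted p = 3.51e-05), and Slc7a1, by 0.14 (0.0267), whose libraries overlapped those of the controls. Only 1 member was called higher with either limma fit, and on leaving out UVA + alpha-arbutin replicate 1 or 2 or control replicate 1 or 2. Atf4 had a log2 change of -0.11 (adjusted p = 0.0407), a call that was lost without any 1 of the co-treated libraries or without control replicate 1 or 3 (0.0531 to 0.171). Slc1a4, which fell after UVA alone, did not pass the test here (-0.08, adjusted p = 0.297), and Eif4ebp1, which did not pass it after UVA alone, fell by 0.21 (0.00311).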

How the data were processed

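Per the file headers, the authors deposited a raw count and an FPKM value per Ensembl gene for each of 9 libraries, with mm39 coordinates and exon sizes. Tools listed in the submitters' processing notes, with no roles, are HTSeq 0.6.1, HISAT2 2.2.1, cutadapt 1.9.1 and bcl2fastq 2.20.0.422, and the build is mm39. The treatment of multi-mapped reads, the strandedness of counting and the annotation release are not stated in the labels used. Deposited FPKM equalled count over size and library total in 510219 of 510219 values (tolerance 0.01). Rows without a symbol (2639 genes, 0.112 to 0.118% of counts) were kept.

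Counts were tested in edgeR 4.0.16 (R 4.3.3): filterByExpr, TMM factors of 0.992 to 1.007, quasi-likelihood F-test, two-sided, 1 fit by group over all 9 libraries, with Benjamini-Hochberg adjustment over 14151 genes in each of 3 comparisons. Genes were called at an adjusted p below 0.05. Fold changes and intervals (95%) come from this fit, and printed levels are FPKM. The script was tested on simulated data. Alternatives were DESeq2 1.42.0, limma 3.58.1 on log2(FPKM + 1) and log2(FPKM + 0.1), other scaling and filters, 2 groups only, a replicate block, and leaving out each library. Control column names (prefix NC) were assigned by elimination.

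The members and lists were chosen with earlier results of these data known. Values in every library are given for the 14 members with the smallest p after UVA, and for Atf4, Ddit3, Asns, Chac1 and Trib3 in any case, and for a few others chosen after their values were seen (Slc38a2, Slc1a4, Nupr1 and Psph). Of each other list the 4 genes with the smallest p are named, and Slc7a11, the gene called in UVA + alpha-arbutin against UVA, is given in every library. Nars is named as well, since it stands in both the ATF4-dependent and the cytosolic synthetase list. Promoters are RefSeq windows on GRCm38.p6 and were not joined to mm39 coordinates.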

Additional observations from a re-analysis of the deposited data

How the results depend on the processing

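After UVA, the count of members called lower lay between 24 and 29 under every alternative, and the members' median between -0.32 and -0.27. The count called higher was 1 without the filter on low counts, with DESeq2, with limma on log2(FPKM + 1) and with limma on log2(FPKM + 0.1), and 1 to 2 on leaving out single libraries, since the Mthfd1l call was lost. In UVA + alpha-arbutin against UVA, the count called higher was 1 without the filter and 0 to 2 on leaving out single libraries, the 2 being Aldh1l2 and Slc1a4 without UVA replicate 1. Against control, UVA + alpha-arbutin gave 1 member called higher with either limma fit and 1 to 3 on leaving out single libraries, and the count called lower fell to 20 without control replicate 3. The replicate numbers did not pair the libraries (same-number correlations of residuals from -0.014 to 0.065, all under 0.1). With the replicate block, members called higher numbered 1 in UVA + alpha-arbutin against UVA (Aldh1l2, adjusted p = 0.0368), and it changed no other count of members called. Over all genes the UVA + alpha-arbutin against UVA calls moved from 4 higher and 1 lower to 20 and 9 without the filter, 16 and 3 with the block, 0 and 0 with limma, and 1 to 14 and 0 to 8 on leaving out single libraries, the most without UVA replicate 3. Among the genes named, signs changed only in values that were not called, on leaving out 1 library. After UVA these were Stc2 (range -0.11 to 0.01, with 0.002 and 0.003 between), Xpot (0.01, 0.01 and 0.002), Slc7a1 (range -0.02 to 0.06) and Slc7a3 (range -0.04 to 0.23, with -0.002 between). Between co-treatment and UVA they were Atf4 (range -0.0004 to 0.06), Psat1 (range -0.02 to 0.08) and Shmt2 (range -0.002 to 0.06), and between co-treatment and control Slc7a11 (range -0.06 to 0.13). Ppp1r15a was also not called with DESeq2 (adjusted p = 0.0749) or without the filter (0.0879), and Cebpb not with limma (0.0876 and 0.0839). The causes were not tested.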
